A study of Danio rerio with 17 samples.

Results

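The nuclear pore and nuclear transport genes of the zebrafish (Danio rerio) oocyte were followed along the animal-vegetal axis. They were taken as the genes whose symbol begins with nup and a digit, kpna, kpnb, ipo and a digit, xpo and a digit, or tnpo, with at least 10 reads summed over all libraries. The count tables held 32520 genes, of which 49 had such a symbol, and all 49 reached 10 reads. They comprised 22 nucleoporins and 27 transport receptors. Frozen oocytes had been cut across the axis into 5 segments, from A, at the animal pole, to E, at the vegetal pole, and RNA depleted of ribosomal RNA was sequenced from each. The 17 libraries came from 4 oocytes, and no genotype or treatment is named for any of them. Segments A and C had 4 libraries each, from oocytes 1 to 4, segment B had 3 (oocytes 1, 2 and 4), segment D had 3 (oocytes 1, 2 and 3), and segment E had 3 (oocytes 1, 3 and 4). The combinations that would complete the grid (E from oocyte 2, B from oocyte 3, D from oocyte 4) were not analysed here. Strain, age and number of the mothers and the stage of the oocytes are not given in the sources used here. The main tests had no term for oocyte, so p-values measure the spread between libraries of these 4 oocytes, which may share a mother. For the slope, that spread also holds departures of the segments from a line.

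The nuclear pore is a large channel through the nuclear envelope, built from many copies of a set of nucleoporins. Y complexes and an inner ring form its scaffold, other nucleoporins fill the central channel, and further ones make the cytoplasmic face and the nuclear basket. Importins of the beta class carry proteins inward, often through importin alpha as an adaptor that reads the nuclear localization signal, and exportins carry cargo outward, both directed by the GTPase Ran. The oocyte holds a very large nucleus, the germinal vesicle, which in time moves towards the animal pole, and it stores messages for the embryo's first nuclei.

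Levels are given as CPM, counts relative to a library size scaled by TMM, the trimmed mean of M values. Each library was made from a set amount of RNA, so CPM stands for a share of the gene reads of a slice, not an amount per volume. Fewer copies cannot be told apart from more of other RNA in a slice. Reads in genes ranged from 4054233 to 23672322 a library, and 3 reads, the smallest count read as a level, equalled 0.130 to 0.721 CPM. The 5 libraries of oocyte 1 stood apart, with 4054233 to 9319365 reads and at most 0.00239% spike-in RNA against 0.185% to 0.802% in the other oocytes, and the library of segment C from oocyte 3 had reads in the fewest genes, 8535. For the pore and transport genes that passed a test, results are therefore also given without oocyte 1 and without that library. Among 11 oocyte marker genes with an entry, all had reads, led by nanog with a mean of 2411 CPM and buc with 1620.3 CPM, and 1, pou5f3, fell from A to E (log2 difference -2.19 ± 0.23, SE; edgeR adjusted p = 3.51e-10). Of 13 entries for follicle cell markers, 4 had reads, led by cyp11a1 with a mean of 127 CPM, and 9 were at 0 in every library, among them fshr, amh and star. The follicle markers summed to 64.7 to 339.7 CPM in A, 129 to 254 in B and 89.8 to 203 in C. Their sum was 103 to 226 CPM in D and 195 to 278 in E. Of 6 entries for blood markers 5, including hbaa1, were at 0, and the other, coro1a, reached at most 17.1 CPM. The part of such cells in the results was not tested.

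Of the nuclear pore and transport genes, 2 changed along the axis in edgeR's test with TMM scaling. Other settings also called kpna3 and 1 nup85 entry (DESeq2), ipo5 and nup153 (the authors' factors) and ipo13a. The last was called with no filter on low counts, and when any 1 library of B, D or E was left out. It had reads in segment A alone, so its slope could only fall in those fits, and no change is read from them. Of 12549 genes, DESeq2 called 687 between the ends and 495 by slope, against 240 and 303 in the main tests. The authors' factors gave 462 for any difference against 209, and no filter gave 1096 slopes among 15867 genes. The importin alpha gene kpna6 was 4.66-fold higher at the vegetal than at the animal end. The inner ring gene nup35 fell along the axis by its slope, but did not pass between the ends. Its slope no longer passed with the authors' factors or in 4 of 21 fits that left out a library or oocyte. Of the 49 genes, 48 were tested. The ipo13a gene was not, having 67 reads in segment A of oocyte 1, 75 in segment A of oocyte 3 and 0 in the other 15 libraries. Together the 49 genes held 1.05% of all reads in genes, and their summed level was 10275 ± 989 CPM (SD, n = 4) in A, 10688 ± 616 (n = 3) in B, 10469.7 ± 113 (n = 4) in C, 10451 ± 728 (n = 3) in D and 10176 ± 764 (n = 3) in E. The range of these segment means was thus smaller than the SD within A, B, D or E, but larger than that within C.

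Between the ends of the axis, 1 of the 48 genes (2.08%) passed edgeR's quasi-likelihood test, with p-values adjusted by Benjamini-Hochberg and a threshold of 0.05, against 240 of all 12549 genes tested (1.91%). That gene was higher in E, as were 1.03% of all genes, and 0 of 48 passed as lower, against 0.885%. For a slope over the 5 segments, 2 of 48 passed against 303 genes (2.41%), with 1 rising (background 1.18%) and 1 falling (1.24%). For any difference among segments 2 of 48 passed against 209 genes (1.67%). Among genes whose mean reached 100 CPM, here called well read, 1 of 30 pore and transport genes passed between the ends against 7.61% of 2668 genes (4.05% higher in E, 3.56% lower). In those well-read genes 2 of 30 passed the slope test against 8.92% (4.2% rising, 4.72% falling), and the same 2 passed the joint test against 6.52%. At an unadjusted p under 0.05, 4, 4 and 2 of the 48 genes (8.33%, 8.33% and 4.17%) passed the 3 tests, against 8.05%, 7.50% and 7.08% of all genes tested. None of the 48 passed a test between neighbouring segments by edgeR, where 1 (0.00797%), 6 (0.0478%), 13 (0.104%) and 22 genes (0.175%) passed from A-B to D-E, and 2, 1, 1 and 4 of the 48 had an unadjusted p under 0.05 (4.17%, 2.08%, 2.08% and 8.33%), against 4.797%, 4.996%, 5.67% and 4.05% of all genes. Comparisons between neighbours were added after values had been seen.

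**Figure D1:**
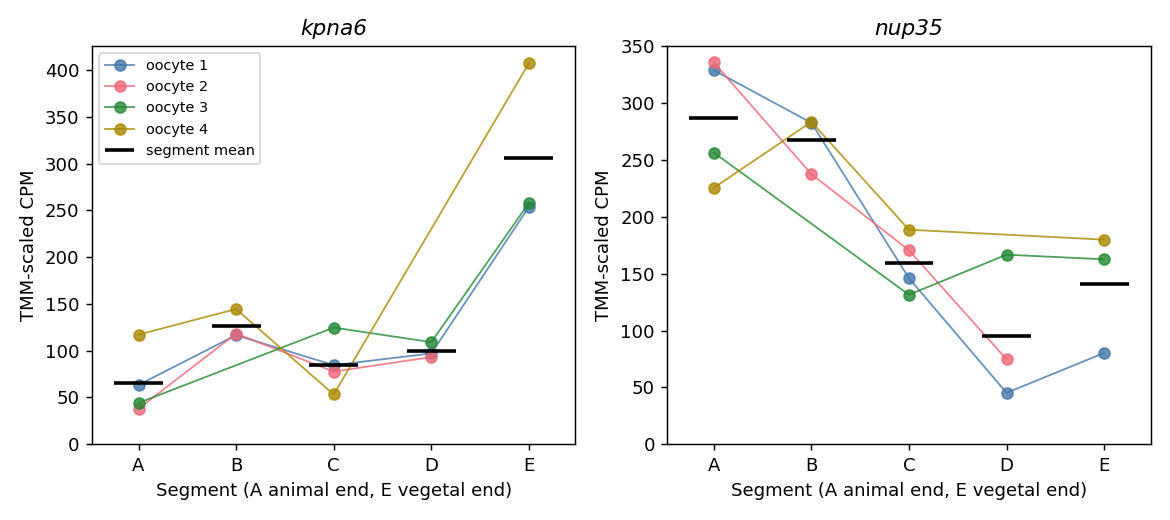
Level of kpna6 and nup35 in each library (CPM), by segment from A (animal) to E (vegetal), with the libraries of an oocyte joined by a coloured line and segment means as black bars. The 3 libraries of E sit at 254 to 407 CPM for kpna6, above all 14 others, and the 7 libraries of A and B sit at 225 to 336 CPM for nup35, above the 10 libraries of C, D and E. Both groupings were made after values had been seen.

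The gene kpna6 (ENSDARG00000044980) encodes an importin alpha, the adaptor between a cargo's nuclear localization signal and importin beta, and in mice the embryo depends on the mother's Kpna6. In the order of oocyte numbers it measured 63.4, 38.0, 44.2 and 117 CPM in A, 117, 118 and 145 in B, 84.6, 77.6, 125 and 53.2 in C, 97.1, 93.2 and 109 in D, and 254, 258 and 407 in E. All 3 libraries of E lay above the other 14, which ranged from 38.0 to 145 CPM, so that E stood alone. Among A to D, only B and D did not overlap, with B the higher. Segment means were 65.7 ± 36.0 CPM in A (SD, n = 4), 127 ± 15.7 in B (n = 3), 85.0 ± 29.7 in C (n = 4), 99.8 ± 8.31 in D (n = 3) and 306 ± 87.6 in E (n = 3). Segment E thus held 44.8% of the sum of the 5 segment means. The fitted log2 difference of E from A was 2.22 ± 0.44 (SE; 95% interval 1.34 to 3.10; edgeR adjusted p = 6.04e-04). Within oocytes 1, 3 and 4, E exceeded A by 1.99, 2.53 and 1.79 on the log2 scale, so the direction held in 3 of 3 oocytes.

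The slope of kpna6 was 0.43 ± 0.099 log2 units per segment (SE; edgeR adjusted p = 0.00446), and the joint test gave an adjusted p of 0.00184 by edgeR. Along the axis the level did not climb evenly. It was higher in B than in A by 0.94 on the log2 scale (edgeR adjusted p = 0.890), and it was higher in E than in D by 1.62 ± 0.48 (SE; 95% interval 0.66 to 2.57; edgeR adjusted p = 0.352). Neither step passed with edgeR, while DESeq2 gave an adjusted p of 0.00453 for the step from D to E. The difference between the ends passed without each library or oocyte in turn, at log2 1.98 to 2.66 and edgeR adjusted p 1.58e-04 to 0.0291. Without E of oocyte 4, its highest library, the slope had an adjusted p of 0.104 and the joint test one of 0.224 by edgeR. Without all of oocyte 4 the joint test gave 0.113. Without oocyte 1 the difference between the ends was 2.32 (edgeR adjusted p = 0.00580), and without segment C of oocyte 3 it was 2.22 (edgeR adjusted p = 3.49e-04).

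The other importin alpha genes did not pass any of the 3 tests by edgeR, and DESeq2 called kpna3 between the ends. The family's summed level, kpna6 included, was 1087 ± 88.9 CPM in A (SD, n = 4), 1248 ± 59.7 in B (n = 3) and 1024 ± 117 in C (n = 4). It was 1178 ± 236 in D (n = 3) and 1393 ± 48.4 in E (n = 3). Within these sums kpna6 itself averaged 65.7 CPM in A and 306 in E. The kpna6 gene made up 6.04 ± 3.34% of the family's reads in A (SD, n = 4), 10.1 ± 0.752% in B (n = 3), 8.33 ± 2.98% in C (n = 4), 8.63 ± 1.24% in D (n = 3) and 21.9 ± 5.60% in E (n = 3). By library its share was 18.4% to 28.3% in E and 3.61% to 12.5% elsewhere, with no overlap. These shares set kpna6 against genes of the same libraries without correction for gene length. Reads with more than 1 alignment were not counted, so the split of reads among related importin alpha genes is uncertain. The most read member, kpna4 (ENSDARG00000023190), measured 598, 397, 431 and 467 CPM in A, 531, 609 and 503 in B, 638, 347, 449 and 439 in C, 526, 313 and 641 in D, and 361, 705 and 482 in E. Its segments overlapped, and the log2 difference of E from A was 0.12 ± 0.28 (SE; 95% interval -0.44 to 0.69), an interval that excludes a 2-fold change. For kpna2, one of the best-studied import adaptors, it was 0.14 ± 0.32 (-0.50 to 0.78), and for kpna7, known in mammals as an importin alpha of the oocyte and early embryo, it was -0.21 ± 0.37 (-0.96 to 0.54).

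The remaining importin alpha genes had few reads and large gaps between libraries. The kpna1 gene (ENSDARG00000016360) measured 1.89, 18.7, 3.26 and 4.60 CPM in A, 0, 12.6 and 20.0 in B, 19.8, 3.75, 56.1 and 4.93 in C, 5.29, 33.6 and 31.5 in D, and 99.3, 7.98 and 4.41 in E. A single library, E of oocyte 1, lay far above the others, and the other libraries of E overlapped A. The slope of kpna1 was 0.59 ± 0.37 (SE; edgeR adjusted p = 0.881), and 0.21 to 0.81 when a library or oocyte was left out. Of kpna3, no read was found in the 3 libraries of E, but 1054 reads were found in D of oocyte 2, 852 in B of oocyte 2 and 204 in A of oocyte 3, and 10 libraries had at most 3 reads. The joint test of kpna3 had an edgeR adjusted p of 0.787. The kpna5 gene ranged from 0.122 to 43.7 CPM over all libraries, with the highest segment mean in A.

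**Figure D2:**
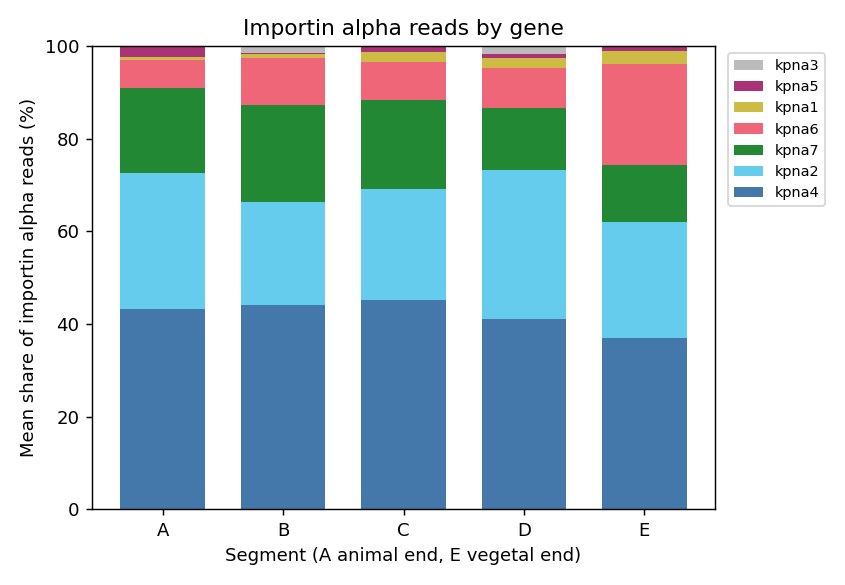
Mean share of the importin alpha reads (percent, over the libraries of a segment) that each of the 7 genes held, as stacked bars by segment from A (animal) to E (vegetal). The share of kpna6 is 6.04% in A and 21.9% in E.

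In the inner ring, which anchors the scaffold to the membrane and to the channel, nup35 (ENSDARG00000012222) was high in A and B and lower beyond. It encodes a nucleoporin that binds the membrane of the pore. It measured 329, 336, 257 and 225 CPM in A, 283, 238 and 284 in B, 146, 171, 131 and 189 in C, 45.2, 74.7 and 167 in D, and 80.3, 163 and 179.9 in E. The 7 libraries of A and B ranged from 225 to 336 CPM and the 10 of C, D and E from 45.2 to 189, with no overlap. This split was drawn after the values had been seen, for a gene that had passed, and adds no test. The share of all genes that separate in such a way was not computed. Segment means were 287 ± 54.3 CPM in A (SD, n = 4), 268 ± 26.3 in B (n = 3), 159 ± 25.4 in C (n = 4), 95.5 ± 63.4 in D (n = 3) and 141 ± 53.2 in E (n = 3). The lowest mean was thus that of D, whose spread overlapped that of E. The slope was -0.34 ± 0.086 log2 units per segment (SE; edgeR adjusted p = 0.0139), and the joint test gave an edgeR adjusted p of 0.0393.

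Between the ends alone nup35 did not pass, with a log2 difference of -1.02 ± 0.39 (SE; 95% interval -1.80 to -0.25; edgeR adjusted p = 0.324). Nor did the step from B to C, at -0.75 ± 0.37 (SE; edgeR adjusted p = 0.874). Slopes within oocytes 1, 2, 3 and 4 were -0.67, -0.70, -0.16 and -0.12, negative in 4 of 4 and steeper in oocytes 1 and 2. Without oocyte 1 the slope was -0.24 (edgeR adjusted p = 0.344) and the joint test gave an adjusted p of 1.00, and without oocyte 2 they gave 0.120 and 0.255. The slope was also lost by edgeR without A of oocyte 2 (adjusted p = 0.0519) or E of oocyte 1 (0.0556), and with the authors' factors (slope -0.29, adjusted p = 0.166), under which the median slope of all genes was 0.08. The joint test was lost without A of oocyte 1 (0.109), 2 (0.120) or 3 (0.0707), B of oocyte 1 (0.0578), or D of oocyte 1 (0.215) or 2 (0.124). Without segment C of oocyte 3 the slope passed (-0.34, edgeR adjusted p = 0.0109).

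All 5 inner ring genes had a negative fitted slope, of which 1 passed the test, but with the authors' factors only 3 of the 5 slopes were negative. In the main fit the slopes of nup205 and nup155 were only -0.018 and -0.033. Slopes were also negative in 5 of 7 Y complex genes, 2 of 2 nuclear basket genes and 27 of all 48 tested. Of all genes tested, 50.8% had a positive slope. The inner ring genes, nup35 included, summed to 999 ± 127 CPM (SD, n = 4) in A, 922 ± 69.9 (n = 3) in B and 828 ± 168 (n = 4) in C. The sum was 770 ± 101 (n = 3) in D and 709.8 ± 63.5 (n = 3) in E. Within these sums nup35 itself averaged 287 CPM in A and 141 in E. By the same split, the share of nup35 in the reads of the ring was 26.1% to 33.3% in A and B and 5.88% to 25.4% in C, D and E. The nup155 gene (ENSDARG00000001777), the most read of the ring, measured 307, 519, 394 and 325 CPM in A, 485, 365 and 172 in B, 283, 529, 244 and 207 in C, 525, 306 and 379 in D, and 352, 355 and 254 in E. Its segments overlapped, with a log2 difference of E from A of -0.27 ± 0.33 (SE; 95% interval -0.92 to 0.38). For the large scaffold genes nup188 and nup205 the difference was -0.50 ± 0.43 (-1.36 to 0.37) and -0.029 ± 0.44 (-0.90 to 0.84). The linker gene nup93 (ENSDARG00000003487) measured 29.9, 33.0, 46.5 and 9.14 CPM in A, 4.87, 27.9 and 19.2 in B, 9.68, 33.3, 17.8 and 77.6 in C, 3.84, 9.15 and 29.9 in D, and 3.95, 4.97 and 4.72 in E. All 3 libraries of E lay below all 4 of A and all 4 of C, while B and D overlapped E and A, and the slope was -0.51 ± 0.36 (SE; edgeR adjusted p = 0.991).

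**Figure D3:**
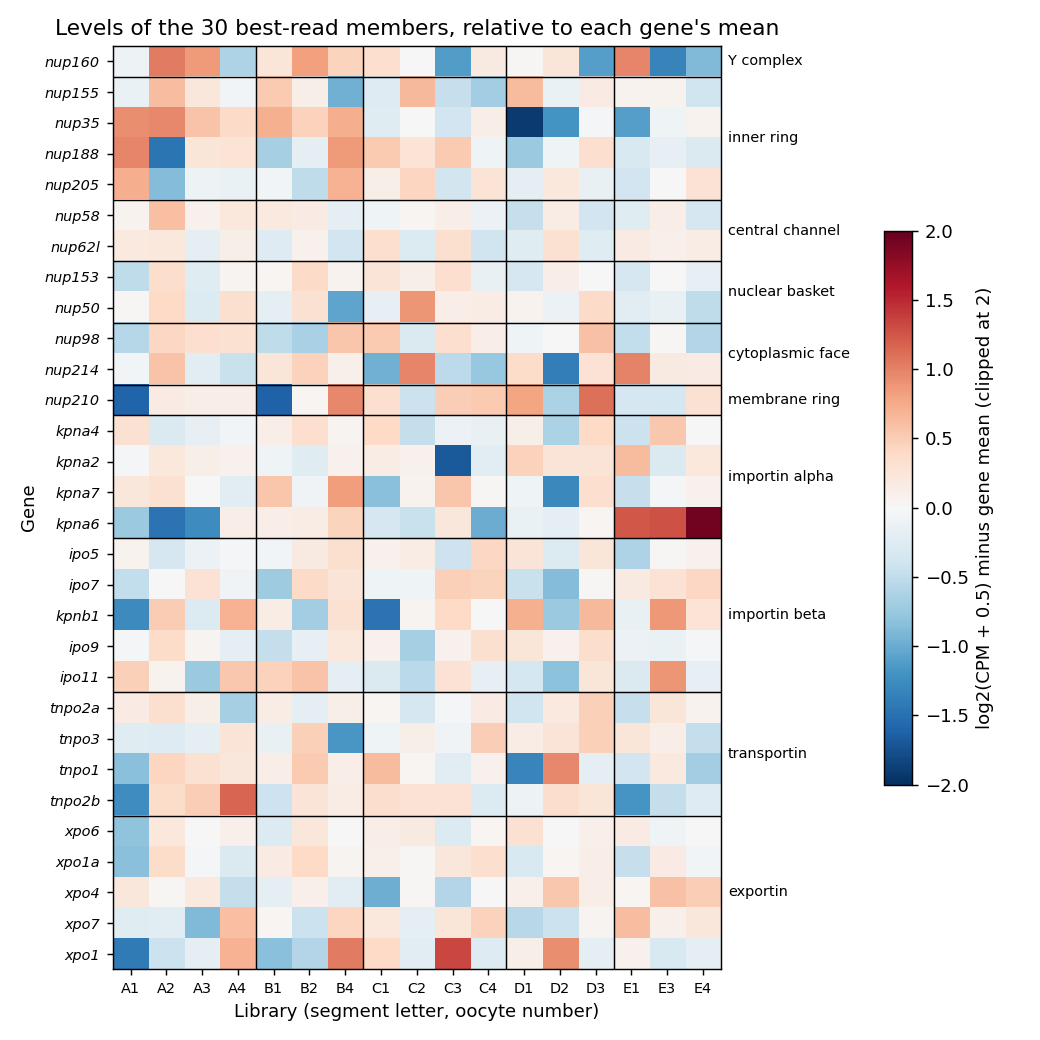
Level of each of the 30 well-read genes in each of the 17 libraries, as log2(CPM + 0.5) minus the gene's mean (colour, clipped at 2 on either side), with genes grouped by place in the pore or class of receptor and libraries by segment. The row of kpna6 is darkest red in the 3 libraries of E, and that of nup35 is red in all 7 libraries of A and B.

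None of the 7 Y complex genes passed a test by edgeR, while DESeq2 called the slope of 1 nup85 entry. The most read, nup160 (ENSDARG00000027140), which encodes an outer scaffold protein, measured 122, 268, 236 and 85.1 CPM in A, 155, 229 and 179 in B, 164, 131, 59.6 and 148 in C, 132, 155 and 60.4 in D, and 256, 51.1 and 70.5 in E. Values spread from 51.1 to 256 CPM within E and from 155 to 229 within B. All segments overlapped, with a log2 difference of E from A of -0.50 ± 0.47 (SE; 95% interval -1.44 to 0.44). The other 6 had means under 100 CPM, and the nup37 gene (ENSDARG00000094191) measured 21.4, 28.8, 16.1 and 0 CPM in A, 14.1, 0 and 12.7 in B, 5.81, 9.01, 0 and 0 in C, 4.33, 0 and 47.2 in D, and 0, 0.143 and 17.3 in E. It had no read in 6 libraries, with at least 1 in each segment, and a slope of -0.19 ± 0.52 (SE; edgeR adjusted p = 1.00). Both entries named nup85 were included, and the second (ENSDARG00000112002) had at most 3 reads in 13 libraries but 1178 in B of oocyte 2 and 698 in B of oocyte 4. Reads with more than 1 alignment were not counted, and the effect of this on both entries was not tested.

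In the central channel, whose repeat-rich nucleoporins form the barrier that receptors cross, nup58 (ENSDARG00000033965) measured 529, 764, 536 and 584 CPM in A, 578, 564 and 446 in B, 476, 518, 552 and 467 in C, 368, 557 and 386 in D, and 425, 553 and 400.5 in E. The highest library of E lay above the lowest of A, so the groups overlapped. The segment mean went from 604 ± 109.9 CPM (SD, n = 4) to 459.8 ± 82.0 (n = 3), and the log2 difference was -0.39 ± 0.26 (SE; 95% interval -0.92 to 0.13; edgeR adjusted p = 0.781). For nup62l, related by name to the channel gene nup62, it was 0.045 ± 0.30 (-0.55 to 0.64). In the nuclear basket, nup153 (ENSDARG00000099972) had the most reads of all 49 genes, uncorrected for gene length. It measured 891, 1624, 1069 and 1322 CPM in A, 1304, 1657 and 1335 in B, 1513, 1374, 1607 and 1138 in C, 1003, 1386 and 1263 in D, and 1007, 1257 and 1137 in E. All 3 libraries of B lay above all 3 of E, the other pairs of segments overlapped, and the log2 difference of E from A was -0.11 ± 0.23 (SE; 95% interval -0.58 to 0.35), so a 2-fold change lay outside its interval. With the authors' factors its joint test passed. The other basket gene, nup50, differed by -0.42 ± 0.32 (-1.07 to 0.22).

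Of the genes of the cytoplasmic face, where exported RNA is released, nup98 (ENSDARG00000074955), which is found on both faces, was the most read. It measured 145, 287, 272 and 267 CPM in A, 151, 137 and 316 in B, 311, 175, 272 and 235 in C, 202, 214 and 322 in D, and 153, 219 and 143 in E. The library of A from oocyte 1 lay below the other 3 of A and beside those of E. The log2 difference was -0.50 ± 0.35 (SE; 95% interval -1.21 to 0.21; edgeR adjusted p = 0.827). The nup88 gene (ENSDARG00000003235), a partner of the export platform, measured 52.0, 37.3, 77.0 and 44.6 CPM in A, 71.7, 19.9 and 109 in B, 93.2, 147, 81.9 and 112 in C, 193, 107 and 53.9 in D, and 83.9, 152 and 68.1 in E. Its mean was 52.7 ± 17.3 CPM (SD, n = 4) in A, 118 ± 70.0 (n = 3) in D and 101 ± 44.4 (n = 3) in E, with ranges that overlapped, while all 4 libraries of C lay above all 4 of A. Its slope of 0.29 ± 0.13 had an unadjusted p of 0.0357 and an adjusted p of 0.553 by edgeR. The only membrane ring gene, nup210 (ENSDARG00000063333), which spans the pore membrane, measured 33.3, 114, 111 and 112 CPM in A, 32.7, 105 and 199.6 in B, 128, 76.0, 144 and 146 in C, 177, 65.8 and 219 in D, and 80.4, 79.8 and 127 in E. All of its segments overlapped, and the log2 difference of E from A was 0.046 ± 0.51 (SE; 95% interval -0.98 to 1.07).

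Among the import receptors of the beta class, none of 8 tested genes passed by edgeR with TMM scaling, while ipo5 passed edgeR's joint test with the authors' factors. The most read, ipo5 (ENSDARG00000040245), an importer of ribosomal proteins and histones, measured 939.96, 709, 817 and 864 CPM in A, 858, 1006 and 1109 in B, 950.2, 989, 669 and 1190.05 in C, 1063, 739.6 and 1056 in D, and 584, 909 and 946 in E. The libraries of all segments overlapped, and the log2 difference of E from A was -0.034 ± 0.25 (SE; 95% interval -0.53 to 0.46). For kpnb1, the partner of importin alpha, it was 0.29 ± 0.41 (-0.54 to 1.12), an interval that reaches past a 2-fold rise. The ipo4 gene (ENSDARG00000041493), another importer of histones and ribosomal proteins, measured 55.7, 82.5, 91.8 and 91.6 CPM in A, 176, 136 and 111 in B, 74.0, 57.6, 100.1 and 112 in C, 117, 256 and 42.8 in D, and 24.9, 42.2 and 83.1 in E. Its mean was highest in B, 141 ± 33.2 CPM (SD, n = 3), and lowest in E, 50.0 ± 29.9 (n = 3). All 3 libraries of B lay above all of A and E, and the other pairs of segments overlapped. The joint test gave an unadjusted p of 0.0701 and an adjusted p of 0.767 by edgeR.

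The transportins, which carry RNA-binding and splicing proteins inward, included tnpo2a (ENSDARG00000038239) at 675, 754, 652 and 381 CPM in A, 668, 532 and 652 in B, 623, 479, 594 and 677 in C, 457, 693 and 836 in D, and 439.7, 716 and 634 in E. Its segments overlapped, and the log2 difference was -0.045 ± 0.27 (SE; 95% interval -0.58 to 0.49). The tnpo2b gene had the lowest estimate among the 28 well-read genes that passed no edgeR test with TMM scaling, -1.01 ± 0.50 (-2.02 to -0.011). Its unadjusted p was 0.0476 and its adjusted p 0.612 by edgeR. Because tnpo2, tnpo2a and tnpo2b are related genes, and reads with more than 1 alignment were not counted, the split of reads among them is uncertain, as it is between xpo1 and xpo1a.

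Among the exportins none of 6 tested genes passed by edgeR. The most read, xpo6 (ENSDARG00000041217), carries actin out of the nucleus, and in frog oocytes a lack of this exportin is known to let actin gather in the germinal vesicle. It measured 441, 884, 766 and 819 CPM in A, 632, 893 and 763 in B, 837, 871, 638 and 787 in C, 943, 766 and 825 in D, and 859, 721 and 773 in E. The library of A from oocyte 1 was the lowest and the segments overlapped. The gene had the lowest CV among the 30 well-read genes, 15.5% over 17 libraries, and its log2 difference of E from A was 0.11 ± 0.25 (SE; 95% interval -0.39 to 0.61). For xpo1a, an exportin 1 gene that exports proteins with a leucine-rich signal, it was 0.042 ± 0.28 (-0.52 to 0.61), and for xpo7 it was 0.42 ± 0.33 (-0.23 to 1.07). Among the 14 well-read importin beta, transportin and exportin genes, 9 had intervals inside 2-fold.

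**Figure D4:**
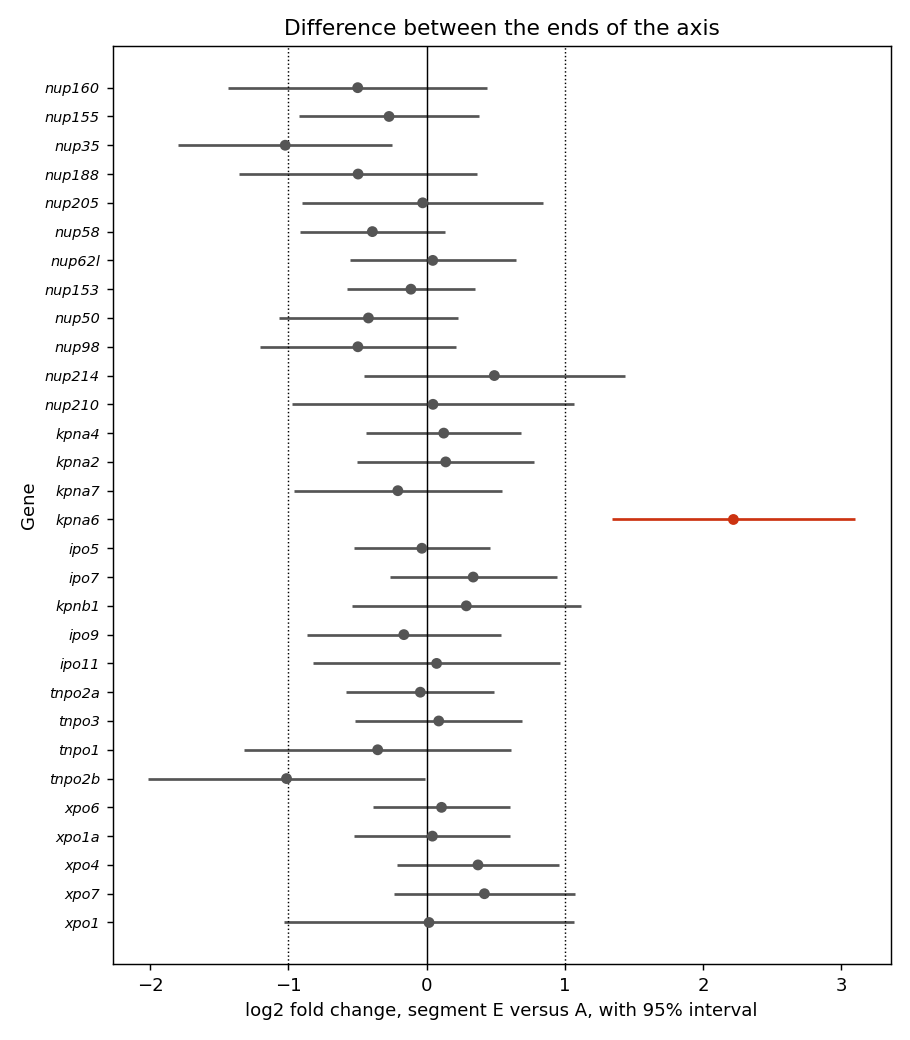
Log2 difference of segment E from segment A for the 30 well-read genes (points, with 95% intervals as lines), and dotted lines at a 2-fold change. The point of kpna6 is at 2.22, and 17 of the 30 well-read genes have intervals within 1 log2 unit of no difference, a count of 9 without oocyte 3.

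The median log2 difference of E from A over the 48 tested genes was -0.04, with 21 above and 27 below 0, beside 0.0008 over all genes tested, of which 50.1% were above 0, and with the authors' factors it was 0.17 beside 0.22. The median slope was -0.0084 beside 0.0041. In oocytes 1, 3 and 4 the median difference of E from A was -0.017, -0.021 and -0.069. The highest segment mean lay in A for 7 members, in B for 11, in C for 9, in D for 11 and in E for 10, beside 19.9%, 19.9%, 17.3%, 19.6% and 23.3% of all genes tested. Of the 30 well-read members, 17 had intervals for E over A within 2-fold, and 13 had intervals that reached past it. The count was 11 without oocyte 1, 9 without oocyte 3 and 11 without E of oocyte 3. None of the other 18 tested had an interval that narrow, so for those a 2-fold difference lay within the interval on at least 1 side. Whether depth or the spread between oocytes set these widths was not tested. The share of all 2668 well-read genes with intervals within 2-fold was not computed.

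The spread between libraries was larger in genes with fewer reads. The CV was taken over all 17 libraries and so includes differences between segments, such as the high level of kpna6 in E. For the 30 well-read genes it ran from 15.5% for xpo6 to 73.0% for kpna6, with a median of 29.2%. The 19 genes under 100 CPM had CVs from 42.3% to 291%, with a median of 99.9%. Of the 49 genes, 10 had a library with no read and 12 a library with at most 3 reads, while each of the 30 well-read genes had more than 3 in every library.

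**Figure D5:**
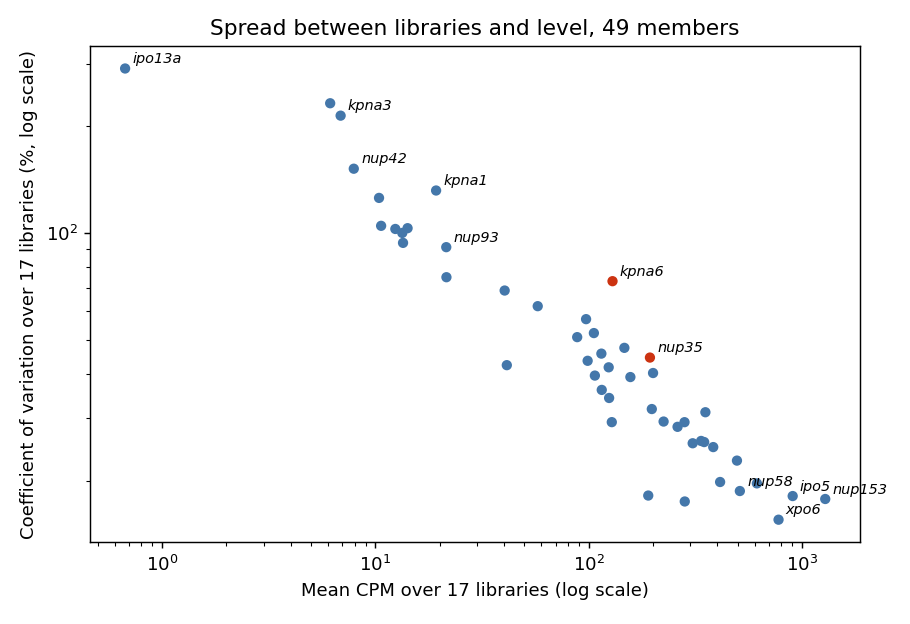
CV over the 17 libraries (percent), differences between segments included, against mean level (CPM) for the 49 genes, both on logarithmic axes, with genes that passed a test in red. The CV is 15.5% to 73.0% for the 30 well-read genes and 42.3% to 291% for the 19 others.

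Of the neighbouring pathway genes none of 9 tested genes of the Ran cycle, 10 other nucleoporins and 17 genes of mRNA and tRNA export passed any of the 3 tests by edgeR. The most read of each were cse1l, which recycles importin alpha, with a log2 difference of E from A of 0.0026 ± 0.26 (SE; 95% interval -0.52 to 0.52), pom121, a membrane nucleoporin, with 0.075 ± 0.23, and thoc2, of the THO complex, with -0.34 ± 0.27. In the nuclear envelope and lamina, 20 entries were found and 13 tested. Of these, 2 passed by slope, both lower towards E, and 1 of them also passed the other tests. Of all genes tested, 1.91% passed between the ends, 2.41% by slope and 1.67% the joint test. The syne2a gene (ENSDARG00000030107), a nesprin that links the nucleus to the cytoskeleton, measured 155, 112, 112 and 181 CPM in A, 152, 258 and 133 in B, 18.7, 47.0, 113 and 25.8 in C, 0, 15.1 and 10.4 in D, and 1.02, 11.6 and 31.7 in E. A and B lay at 112 CPM or more, D and E at 31.7 CPM or less, and C, at 18.7 to 113 CPM, overlapped A and E but not B or D. The log2 difference of E from A was -3.23 ± 0.84 (SE; edgeR adjusted p = 0.0214), the slope was -1.04 ± 0.21 (adjusted p = 7.75e-04), and the joint test had an adjusted p of 4.71e-04, all by edgeR. The difference between the ends was lost by edgeR without A of oocyte 1 (adjusted p = 0.0530), A of oocyte 4 (0.0509), E of oocyte 1 (0.125) or all of oocyte 1 (0.0836).

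The tmpoa gene (ENSDARG00000007315), which encodes a lamina-associated polypeptide of the inner nuclear membrane, measured 755, 816, 607 and 641 CPM in A, 525, 635 and 569 in B, 505, 641, 919.7 and 357 in C, 382, 447 and 385 in D, and 471, 291 and 385 in E. All libraries of A and B, at 525 CPM or more, lay above all of D and E, at 471 CPM or less, and C overlapped both. Its slope was -0.23 ± 0.062 (SE; edgeR adjusted p = 0.0336), from 705 ± 97.5 CPM in A (SD, n = 4) to 382 ± 89.8 in E (n = 3). The difference between the ends did not pass, at -0.88 ± 0.28 (SE; edgeR adjusted p = 0.112). Among the 6 alternatives that kept all libraries, it passed in 1, and the joint test also passed in 1. The slope's call was lost in 11 of 21 leave-one-out fits, with edgeR adjusted p up to 0.165, and with the authors' factors (slope -0.15, edgeR adjusted p = 0.709).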

How the data were processed

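RNA was sequenced from 17 libraries of oocyte segments (SENSE total RNA kit after depletion of ribosomal RNA, per the labels' protocols). The authors deposited a table of counts for each library, whole reads for each of 32520 Ensembl genes with 92 spike-in and 5 summary entries. Reads were handled with Trimmomatic, STAR 2.5.3a, HTSeq and DESeq2 on the build GRCz11, per the submitters' processing notes, while the annotation release and the strand setting are not given in the sources used here. Reads outside genes were 4.60% to 6.10% of the entries, reads in overlapping genes 0.502% to 0.633%, and reads with more than 1 alignment 6.88% to 14.2%, the last highest in A of oocyte 1. Neither spike-ins nor summary entries entered the library sizes or the tests. A second deposited table gives a normalized signal, in which the authors divided each library's counts by 1 factor. Multiplying back gave whole reads for 100% of its values, within 0.01 reads, and 100% then equalled the counts, so it served only for its factors. Symbols were found for 29201 genes (89.8%) in a table of gene names. Genomic positions and sequences are not given here.

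Genes retained by filterByExpr of edgeR (grouped by segment, minimum count 10) numbered 12549 and held 99.8% of the reads. They were tested with the quasi-likelihood F-test of edgeR 4.0.16 in R 4.3.3, 2-sided, with TMM library sizes, 1 coefficient per segment or 1 slope over positions 1 to 5, and Benjamini-Hochberg adjustment over all genes tested within each comparison. SEs are the absolute log2 estimate divided by the square root of F, and intervals are 95%. The code was tested on simulated data. Depth was 4054233 to 23672322 reads a library, and the floor of 3 reads covers counting error only. The genes, the role groups (tnpo2a was placed by its name) and the lists of pathway and marker genes were chosen with earlier results of these data known. Values in every library are given for genes that passed a test, the 3 steepest rises and 3 steepest falls in slope where the mean reached 10 CPM, the most read of each role, and the one with the smallest joint p among those highest in B, C or D. Other genes named for an interval were chosen after their values were seen. Statements on which segments overlapped were also made from the values seen, and their share over all genes was not computed.

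Libraries with the same oocyte number come from the same oocyte by the labels. Over the 2668 genes whose mean reached 100 CPM, the correlation of deviations from the segment means was -0.088 to 0.29 (median 0.071) in 28 pairs of libraries from the same oocyte, and had a median of -0.035 in 87 pairs from different oocytes. Alternatives were DESeq2 1.42.0 with its own factors and test, RLE factors, library sizes alone, the authors' factors, no filter, oocyte as a replicate block, and each library or oocyte left out. No read-level step could be checked.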

Additional observations from a re-analysis of the deposited data

Results flagged for a closer look

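In segment A, the only segments of 4 libraries being A and C, 3 values lay far from the other 3 of their group. In the library of oocyte 1, nup98 measured 145 CPM against 267 to 287 CPM in the others of segment A. In the same library, nup210 measured 33.3 CPM against 111 to 114 CPM. In the library of oocyte 2, kpna1 measured 18.7 CPM against 1.89 to 4.60 CPM. The gap to the nearest value, as a share of the group's range, was 0.861, 0.969 and 0.839, above Dixon's critical value for 4 samples. With 34 groups searched, chance alone would give about 1.7 such values. The library of A from oocyte 1 was the lowest of its segment for 13 of the 30 well-read genes, against 4 to 7 for the others. Among segments of 3 libraries, E of oocyte 1 was lowest for 15 and D of oocytes 1 and 2 for 14 each. Segment A of oocyte 1 had the highest share of reads with more than 1 alignment, 14.2%. The part of depth, batch or alignment in these values was not tested.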

How the results depend on the processing

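Within oocytes 1, 2, 3 and 4 the segments share a cell, and a replicate block for oocyte left the calls of pore and transport genes at 1 between the ends, 2 for the slope and 2 for any difference. The block moved the median difference of E from A to -0.079 and turned that of nup210 to -0.013. It changed no other call among these genes.

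The count of genes called between the ends was 1 in every leave-one-out fit and 2 with DESeq2 (kpna3 added). The count for the slope was 1 to 3 in leave-one-out fits and 1 with the authors' factors (kpna6), and the count for any difference was 1 to 2. Among all genes, the leave-one-out fits tested 12368 to 13486. They called 152 to 258 between the ends, 202 to 360 for the slope and 151 to 248 for any difference. With no filter the slope of ipo13a also passed. It also passed when any 1 library of B, D or E was left out, where the filter kept 13386 to 13486 genes, against 12549 in the main tests. With reads in segment A alone, the slope of ipo13a could only fall in such fits, and no change is read from them. With DESeq2 the slope of 1 nup85 entry passed. With the authors' factors the genes with any difference were ipo5, kpna6 and nup153, without nup35. The median difference of E from A was -0.161 to -0.021 in leave-one-out fits, -0.080 with library sizes alone, 0.17 with the authors' factors and -0.0064 with no filter. Relative to reads, the authors' factors were smaller in all libraries of B, C and D than in A or E, raising levels there. The part of this in the calls of ipo5 and nup153 was not tested. The authors' factors moved the median of all genes by 0.22 between the ends and by 0.08 in slope, and gave a median slope of 0.067. They turned the difference between the ends for ipo5 to 0.18, nup153 to 0.11 and tnpo2a to 0.17, and with no filter that of ipo5 was 0.0030. In leave-one-out fits the estimate between the ends ran from -1.69 to 0.045 for nup160, -0.14 to 0.24 for xpo6, -0.21 to 0.46 for kpna4, -0.14 to 0.22 for ipo5, -0.23 to 0.26 for nup210, -0.25 to 0.070 for nup153 and -0.26 to 0.18 for tnpo2a, and the slope of nup37 from -0.45 to 0.0077. The well-read genes with intervals within 2-fold numbered 9 to 17, with 9 without oocyte 3. The cause of these shifts was not tested, and the leave-one-out fits had fewer samples. Over all 12549 genes DESeq2 called 687 between the ends and 495 for the slope, and the authors' factors gave 462 for any difference. No filter gave 1096 for the slope among 15867 genes. None of the 18 tested genes under 100 CPM had an interval within 2-fold, and the part of depth in this was not tested. At 3 reads a library, levels under 0.130 to 0.721 CPM could not be read.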
